A study of Rattus norvegicus with 24 samples.

Results

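The miR-34 family was measured on the array by rno-miR-34a, rno-miR-34b and rno-miR-34c, which were chosen by name as the entries that match these names exactly. They are 3 of the 677 rat miRNAs on the array. Peripheral blood mononuclear cells (PBMC) of female Wistar rats were profiled on 24 one-colour arrays that fall into 12 groups of 2. Healthy, non-immunised animals (NOCIA) were sampled before therapy, at 1 hour and at 34 days. All the other groups were immunised with bovine type II collagen in Complete Freund's Adjuvant, with a later booster in Incomplete Freund's Adjuvant. This gives the rats a joint disease, collagen-induced arthritis (CIA), that serves to model the human one. The untreated CIA group was sampled before therapy only. At 1 hour and at 34 days the arthritic animals had received mechanical stimulation with a thin rotated needle (MS), methotrexate by peritoneal injection (MTX), saline by the same route (PLA) or no therapy (ANE). ANE animals were anaesthetised with isoflurane at blood sampling, and MS, MTX and PLA animals with ether. ANE and PLA therefore differ in both the anaesthetic and the injection. Blood was drawn terminally, so the times stand for different animals. The age of the animals is not given in the sources used here.

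The miR-34 miRNAs are best known as direct transcriptional targets of the tumour suppressor p53, and they repress mRNAs of cell cycle and survival genes such as those of cyclin-dependent kinases, MYC and BCL2. miR-34a comes from a gene of its own and is made in many tissues, among them lymphocytes. miR-34b and miR-34c are cut from a shared precursor transcript, and they are known for their abundance in ciliated epithelium and in the testis.

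The mature sequences are shown because the 3 members carry the same seed, the bases 2 to 8 that pair with target mRNAs, and because miR-34b and miR-34c are nearly the same molecule. They were taken from RefSeq (GRCr8) and are written 5′ to 3′ with the seed in capitals. The array names carry no arm suffix, and the 5p arms were matched to them. The 2 miRNAs of the miR-449 family are included as the only others in the table with this seed.
miR-34a: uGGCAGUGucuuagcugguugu
miR-34b: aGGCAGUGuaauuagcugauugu
miR-34c: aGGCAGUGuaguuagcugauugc
miR-449a: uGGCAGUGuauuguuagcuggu
miR-449c: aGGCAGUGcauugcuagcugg
Of 693 mature miRNA names in the table, 5 carried the seed GGCAGUG (0.722%). miR-34b and miR-34c were identical at 21 of 23 bases and differed by A11G and U23C, counted from the 5′ end with the base of miR-34b first. miR-34a matched miR-34b at 19 and miR-34c at 18 of 23 aligned positions. A probe for one of the pair could also bind the other. How much of each signal came from the partner was not tested.

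Mature miR-34a lies at chr5:165815971-165815992 on the plus strand, and its hairpin is within the bounds of the long non-coding RNA gene LOC103692514. Mature miR-34b lies at chr8:60306657-60306679 and mature miR-34c at chr8:60306133-60306155, both on the minus strand. Their hairpins are 441 bases apart and overlap the bounds of Hoatz, a protein-coding gene linked to cilia and flagella. Exons of these genes were not used here.

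Levels are log2 of the total gene signal, the sum that the scanner software reports for a miRNA over its probes, after each array was scaled to a common 75th percentile. Levels under a floor of 2.53 were set to it. A miRNA that the software calls undetected carries its listed error in place of a signal. Its probes can have been brighter than that, so the listed level of an undetected miRNA is neither a measurement nor a limit. miR-34a was detected on 24 of 24 arrays, with a signal 11.9 to 13.4 times its error. miR-34b was detected on 22 arrays, at 3.11 to 10.5 times its error, and miR-34c on 16, at 3.11 to 9.12 times. No level is set against that of another miRNA, since probes differ in brightness. The arrays as a whole had 145 to 207 miRNAs detected, and their scale factors ran from 0.452 to 1.42. The 7 leukocyte miRNAs on the list used to check the cell type, miR-142, miR-150 and miR-223 among them, were detected on every array, and 4 of 4 muscle miRNAs on none.

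miR-34a varied within a narrow range, from 7.61 to 8.29 over the 24 arrays. Before therapy it was at 7.67 and 7.73 in NOCIA and at 8.20 and 8.12 in CIA. At 1 hour it was at 7.88 and 7.69 in NOCIA, 7.67 and 7.91 in MS, 8.29 and 7.97 in MTX, 7.77 and 8.18 in ANE, and 7.79 and 7.62 in PLA. At 34 days it was at 7.61 and 7.89 in NOCIA, 8.04 and 7.96 in MS, 8.04 and 8.09 in MTX, 7.94 and 8.15 in ANE, and 8.05 and 7.88 in PLA. CIA before therapy had the highest mean (8.16 ± 0.06, SD, n = 2), followed by MTX at 1 hour (8.13 ± 0.23). NOCIA before therapy had the lowest (7.70 ± 0.04), next to PLA at 1 hour (7.71 ± 0.12). In the order of the 12 means, every neighbouring pair of groups overlapped.

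miR-34b stood apart in ANE and MTX at 1 hour. In ANE at 1 hour its levels were 6.29 and 5.37, and in MTX at 1 hour 5.26 and 5.75. All 20 other arrays were at 4.72 or below. Before therapy it was at 4.50 and 3.96 in CIA and at 4.20 on 1 NOCIA array, and undetected on the other (listed at 3.1), although its brighter probe had scaled signals of 18.3 and 18.4 on these NOCIA arrays. At 1 hour it was at 4.72 and 4.12 in NOCIA, 4.28 and 4.13 in MS, and 4.26 and 3.60 in PLA. These groups overlapped one another. At 34 days it was at 3.48 on both NOCIA arrays, 3.84 and 3.35 in MS, 3.15 and 4.20 in MTX, 3.60 and 3.86 in ANE, and 4.21 on 1 PLA array, undetected on the other (listed at 2.79). The means of ANE and MTX at 1 hour were 5.83 ± 0.65 and 5.51 ± 0.34 (SD, n = 2) and overlapped. The gap of 1.09 below them, to NOCIA at 1 hour (4.42 ± 0.42), was the only one in the order of the 12 means at which neighbouring groups did not overlap.

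miR-34c followed the same order at the top. In ANE at 1 hour its levels were 5.91 and 4.89, and in MTX at 1 hour 4.34 and 5.48, with means of 5.40 ± 0.72 and 4.91 ± 0.80 (SD, n = 2). In CIA before therapy it was at 4.31 and 3.55, while both NOCIA arrays were undetected (listed at 2.88 and 3.08). The lower MTX array (4.34) was thus close to the higher CIA array (4.31). At 1 hour it was at 4.24 and 3.97 in NOCIA, 2.95 and 3.85 in MS, and 3.86 on 1 PLA array, undetected on the other. At 34 days it was at 2.65 and 3.01 in MS, and undetected on both NOCIA arrays. In MTX, ANE and PLA at 34 days it was detected on 1 array each, at 3.89, 3.67 and 4.0. miR-34c was thus detected on 9 of 10 arrays at 1 hour, 5 of 10 at 34 days and 2 of 4 before therapy.

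**Figure D1:**
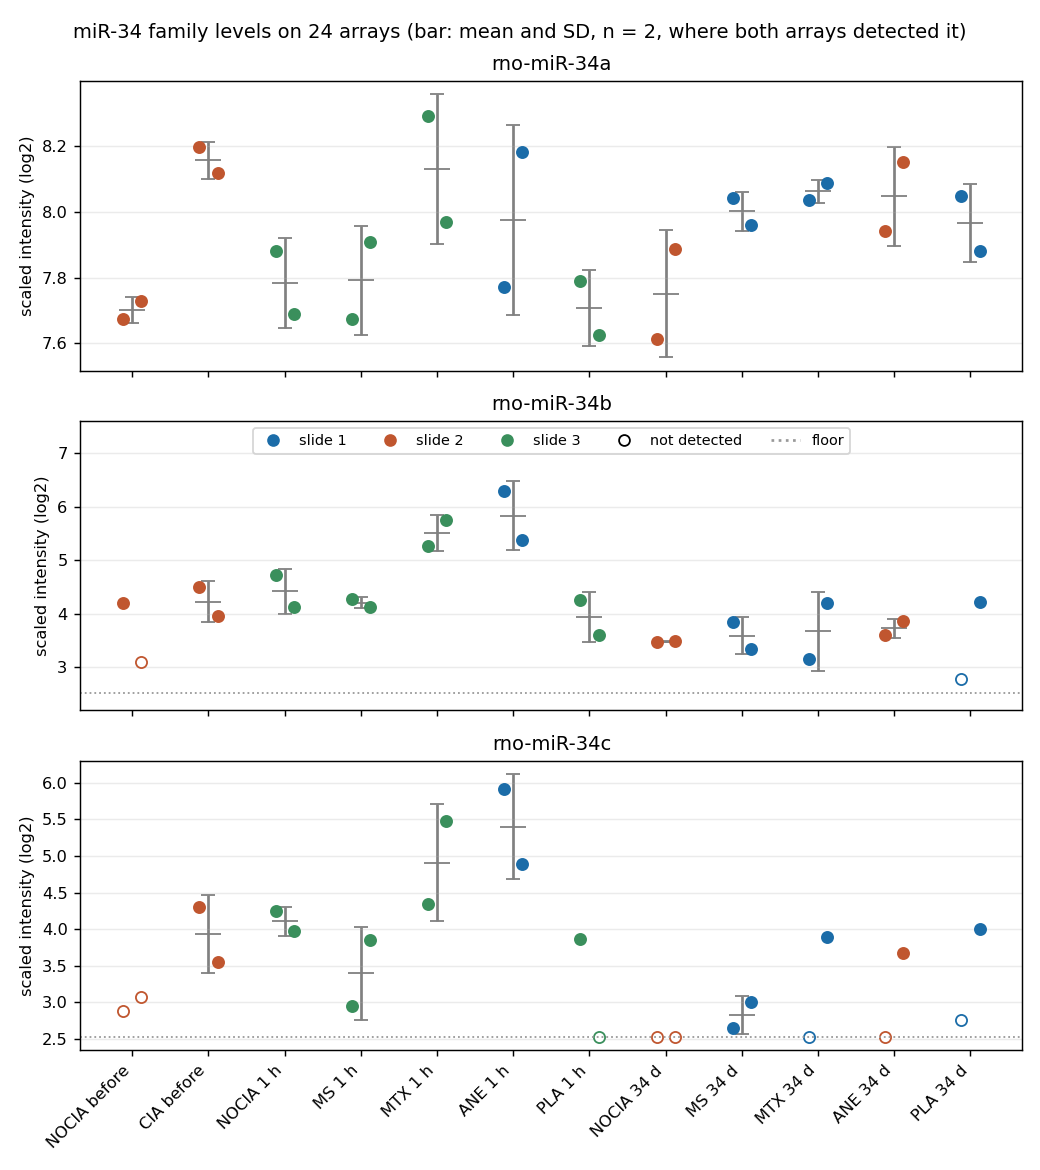
Level of each member on every array (y axis, log2 of scaled intensity) in the 12 groups (x axis); points are arrays coloured by slide, open points are undetected, and bars are the mean and SD of groups detected on both arrays. miR-34a spans 7.61 to 8.29, while miR-34b and miR-34c are highest in ANE and MTX at 1 hour.

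Each member has 2 probes of 10 spots, and the total gene signal does not always hold both. All 62 detected member totals equalled the sum of those probes whose signal was about 3 times their error or more (within 0.01). Probes counted into a total of miR-34b or miR-34c were at 3.04 or more times their error, and probes not counted at 2.99 or less. For miR-34a both probes entered the total on all 24 arrays. For miR-34b both entered on 6 arrays, 1 on 16 and none on 2. For miR-34c both entered on 3, 1 on 13 and none on 8. A total thus steps up where the dimmer probe passes and down where the brighter one does not.

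The arrays with both probes in the total were in part those with the highest levels. For miR-34b they were both ANE and both MTX arrays at 1 hour, with replicate 1 of MS at 1 hour and replicate 1 of MS at 34 days. These 2 MS arrays were the brightest, with the lowest scale factors (0.452 and 0.456). For miR-34c both probes entered the total on both ANE arrays and replicate 2 of MTX at 1 hour.

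The single probes are free of this step, and not all of them separated ANE and MTX at 1 hour from the other arrays. The brighter probe of miR-34b had scaled signals of 51.4 and 28.3 in ANE at 1 hour and of 25.6 and 37.8 in MTX at 1 hour, against 8.90 to 26.3 on the other 20 arrays (median 15.0). Only replicate 1 of NOCIA at 1 hour, at 26.3, was above the lower MTX array. The dimmer probe had 26.7 and 13.2 in ANE and 12.8 and 16.03 in MTX, and at most 11.02 elsewhere. For miR-34c the brighter probe had 42.5 and 21.3 in ANE and 20.3 and 30.4 in MTX, against 6.26 to 19.8 elsewhere. Its dimmer probe did not separate the groups, since replicate 1 of CIA before therapy reached 9.69 and the lower arrays of ANE and MTX 8.46 and 8.11.

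**Figure D2:**
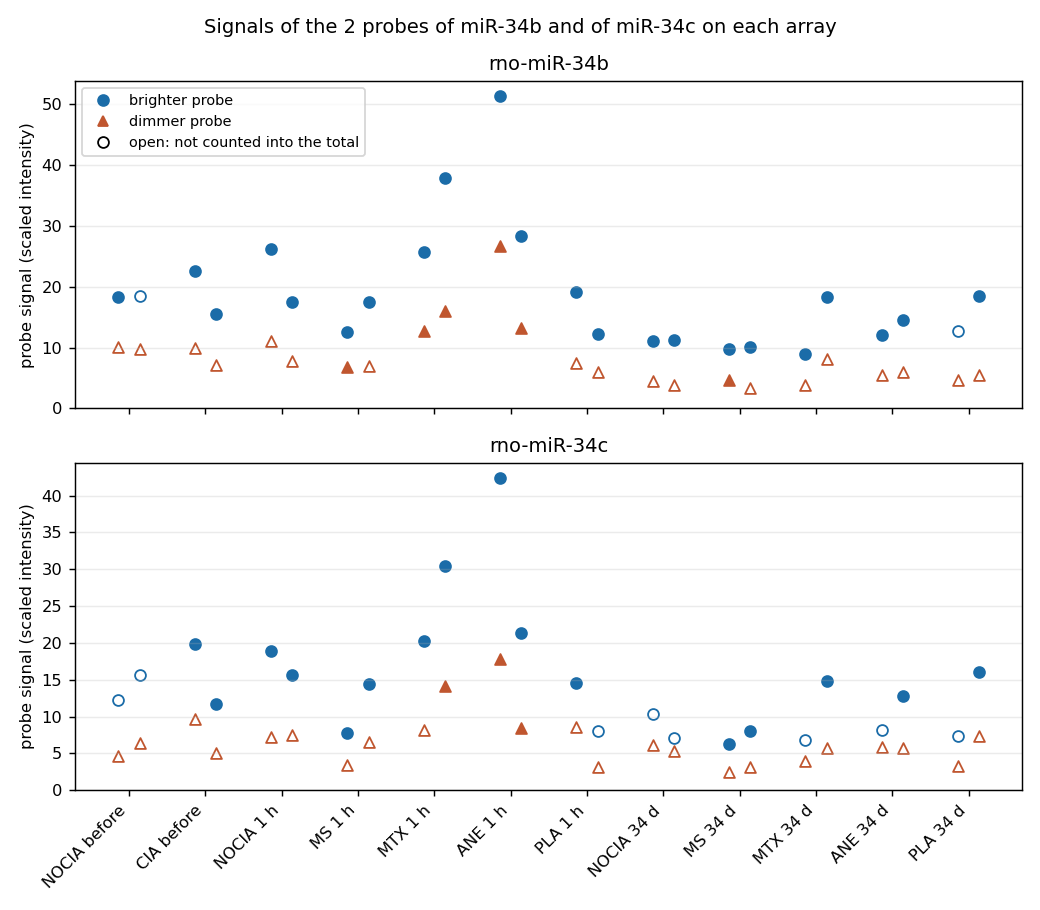
Scaled signal of the brighter probe (circles) and the dimmer probe (triangles) of miR-34b and miR-34c on each array, by group; filled symbols were counted into the total gene signal. The brighter miR-34b probe reaches 51.4 in ANE at 1 hour, and the dimmer probes are counted on few arrays outside ANE and MTX at 1 hour.

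The 19 comparisons of the groups gave no call in any member with limma (Benjamini-Hochberg adjusted p under 0.05 over the 210 miRNAs tested). An unadjusted p under 0.05 was met in 4 comparisons by miR-34a, in 5 by miR-34b and in 4 by miR-34c, and a fold over 2 with it, on arrays that all detected the miRNA, in 0, 5 and 1. Those 5 comparisons of miR-34b were MTX and ANE at 1 hour against CIA, MTX and ANE against PLA at 1 hour, and ANE at 34 days against 1 hour, in which 0.476%, 4.29%, 0.952%, 2.86% and 2.38% of all miRNAs met the same condition. The 1 of miR-34c was ANE at 1 hour against CIA. Of all miRNAs tested, 19% were called in MS at 34 days against CIA, 2.38% in NOCIA at 1 hour against before therapy, and 1.43% in MTX at 1 hour against CIA and in ANE against PLA at 1 hour. The share was 0.952% in CIA against NOCIA before therapy, in PLA at 1 hour against CIA, in NOCIA at 34 days against before therapy and in MS against PLA at 1 hour, and 0.476% in ANE at 1 hour against CIA. It was 0% in the other 10 comparisons. A count of 0 among 3 members is near these shares. The replicates spread by 0.15 (pooled SD, log2) for miR-34a, 0.53 for miR-34b and 0.66 for miR-34c. For miR-34b and miR-34c this spread, and the SE and p drawn from it, also hold undetected values and steps in the number of probes counted. In a test over all 12 groups at once (limma's F test), 2.38% of the miRNAs were called, and the adjusted p was 0.392 for miR-34a, 0.154 for miR-34b and 0.239 for miR-34c.

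Untreated CIA was compared with NOCIA within 1 slide. The groups differ in collagen and adjuvant injections as well as in arthritis, and these cannot be told apart. miR-34a was higher in CIA by 0.46 (SE 0.17, unadjusted p 0.017, adjusted p 0.353), a condition that 7.62% of the miRNAs met without adjustment. Both CIA arrays were above both NOCIA arrays. miR-34b had a difference of 0.58 (SE 0.51, adjusted p 0.938) that rests on 1 undetected NOCIA array, and with both probes summed on every array it was -0.06. miR-34c was detected on both CIA arrays and on no NOCIA array (adjusted p 0.938), and with both probes summed its difference was 0.20. The signals of its brighter probe overlapped, with 19.8 and 11.7 in CIA and 12.3 and 15.6 in NOCIA, where they were 2.33 and 2.58 times their error.

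At 1 hour the differences from untreated CIA were below 0 for miR-34a in all 4 arms and above 0 for miR-34b and miR-34c in ANE and MTX. miR-34a was lower than in untreated CIA by 0.37 in MS (SE 0.17, adjusted p 0.366) and by 0.45 in PLA (SE 0.17, adjusted p 0.544), and its differences were -0.03 in MTX and -0.18 in ANE. Without adjustment, 12.9% of the miRNAs passed 0.05 in MS and 8.1% in PLA. The difference of miR-34b was 1.60 (SE 0.51, adjusted p 0.248) in ANE and 1.28 (SE 0.51, adjusted p 0.644) in MTX, with an unadjusted p under 0.05 in 18.1% and 4.29% of the miRNAs. With both probes summed on every array it was 1.06 in ANE and 0.74 in MTX, where only the brighter probe had entered the CIA totals as deposited. It was -0.02 in MS and -0.29 in PLA. miR-34c had a difference of 1.47 in ANE (SE 0.62, adjusted p 0.263) and of 0.98 in MTX (SE 0.62, adjusted p 1), the former 0.93 with both probes summed, and of -0.54 in MS and -0.74 in PLA. These 4 comparisons share the 2 CIA arrays and were made across slides, so slide and treatment cannot be told apart in them.

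Methotrexate and its saline placebo were compared within 1 slide at 1 hour, and all 3 members were higher in MTX without overlap. Groups of 2 arrays often separate: miR-34a, miR-34b and miR-34c did so in 8, 8 and 10 of the 19 comparisons. The separations of miR-34c include CIA and NOCIA at 1 hour against NOCIA before therapy, which had no detected array. They also include NOCIA at 34 days against before therapy, with no detected array in either group. The share of all miRNAs without overlap was not counted, so these counts are a description only. miR-34a had a difference of 0.42 (SE 0.17, unadjusted p 0.0246), miR-34b of 1.57 (SE 0.51, unadjusted p 0.00791) and miR-34c of 1.71 (SE 0.62, unadjusted p 0.0159), the last with 1 of the 2 PLA arrays undetected. They were 3 of the 5 miRNAs of 210 with an unadjusted p under 0.05 (2.38%), and ranked 4, 2 and 3 by p. After adjustment their p was 0.884, 0.83 and 0.884 with limma. With both probes summed on every array the differences of miR-34b and miR-34c were 1.05 and 1.15. Against NOCIA at 1 hour, on the same slide, MTX differed by 0.35 in miR-34a (SE 0.17), by 1.09 in miR-34b (SE 0.51, unadjusted p 0.05) and by 0.80 in miR-34c (SE 0.62), each with an adjusted p of 1. The miR-34b totals held both probes on these MTX arrays and only the brighter one on these NOCIA arrays. Both probes summed had scaled signals of 38.4 and 53.8 in MTX and of 37.3 and 25.3 in NOCIA. By 34 days the levels in MTX and PLA overlapped for all 3 members, with differences of 0.10, 0.18 and -0.18.

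The largest member differences among the 19 comparisons involved the isoflurane arm at 1 hour. Against PLA at 1 hour, miR-34b differed by 1.90 (SE 0.51, 95% confidence interval 0.81 to 2.98, adjusted p 0.0949) and miR-34c by 2.21 (SE 0.62, interval 0.87 to 3.55, adjusted p 0.117), while miR-34a differed by 0.27 (SE 0.17, adjusted p 0.652). An unadjusted p under 0.05 was found in 9.52% of the miRNAs. From 1 hour to 34 days of the same arm, miR-34b differed by -2.10 (SE 0.51, adjusted p 0.109) and miR-34c by -2.30 (SE 0.62, adjusted p 0.131), where 7.14% of the miRNAs had an unadjusted p under 0.05, and miR-34a by 0.07 (SE 0.17). For miR-34c, 1 of the 2 PLA arrays and 1 of the 2 ANE arrays at 34 days were undetected, with levels at the floor. Both comparisons, against PLA and between the times of ANE, cross slides. miR-34b and miR-34c passed an adjusted p of 0.05 in them under some other scalings and with the floor doubled. With both probes summed on every array, miR-34b differed by 1.37 and miR-34c by 1.40 from PLA. The totals of ANE held both probes at 1 hour, and the brighter one or none at 34 days. Both probes of miR-34b summed to scaled signals of 78.06 and 41.44 at 1 hour, and of 17.55 and 20.54 at 34 days. Those of miR-34c summed to 60.23 and 29.73, and to 13.92 and 18.49.

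Within its own slide, ANE at 1 hour lay beside MS, MTX and PLA at 34 days. The ANE arrays exceeded the mean of these 3 groups by 2.24 (SE 0.41) in miR-34b and by 2.26 (SE 0.51) in miR-34c. The lower ANE array, at 5.37 and 4.89, was above the highest of the 6 others, at 4.21 and 4.0. For miR-34a the difference was -0.03 (SE 0.14). Replicate 1 of PLA at 34 days was undetected for miR-34b and miR-34c, and replicate 1 of MTX at 34 days for miR-34c. The ANE totals held both probes, and those of the 6 others 1 or none, except miR-34b in replicate 1 of MS. With both probes summed, the lower ANE array had scaled signals of 41.4 and 29.7, and the highest of the 6 others 26.5 and 23.4. MTX at 1 hour exceeded the other 3 groups of its slide by 0.37 (SE 0.14) in miR-34a, 1.32 (SE 0.41) in miR-34b and 1.34 (SE 0.51) in miR-34c. The lower MTX array was above the highest of the 6 others for each member. It did so narrowly for miR-34a (7.97 against 7.91) and miR-34c (4.34 against 4.24), and at 5.26 against 4.72 for miR-34b. The miR-34b total held both probes on that MTX array and 1 on the highest other, replicate 1 of NOCIA at 1 hour. Both probes summed had scaled signals of 38.4 and 37.3 on these arrays, and the brighter probe alone 25.6 and 26.3. For miR-34c, replicate 2 of PLA at 1 hour was undetected. These contrasts were chosen after the levels were seen and are given without a test.

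Markers of other cells varied on these arrays as well. miR-122, a liver miRNA, was at scaled intensities of 497 and 43.1 in ANE at 1 hour, undetected in MTX at 1 hour, and between undetected and 217 elsewhere. The summed erythroid miRNAs (miR-451 and miR-144, 2 of 2 detected on every array) were at 2363 and 15640 in ANE in the same replicate order, so that the array high in one was low in the other, 8208 to 10700 in MTX and 4306 to 37550 elsewhere. The 7 leukocyte miRNAs summed to 28350 to 30350 in ANE, 31430 to 32920 in MTX and 19790 to 34320 elsewhere. Single members of this list differed in opposite directions, with 3 of 7 at an unadjusted p under 0.05 and 0 called (limma) in ANE at 1 hour against CIA. Over all miRNAs tested these shares were 18.1% and 0.476%, and the comparison crosses slides. miR-223, a miRNA of myeloid cells, had levels of 13.31 and 13.67 in ANE against 12.26 and 12.60 in CIA, and miR-150, of mature lymphocytes, 12.06 and 12.35 against 13.38 and 13.47. Platelet miR-126 was at 94.3 to 153 in ANE, 53.1 to 109.5 in MTX and 40.3 to 192 elsewhere. Of 8 epithelial miRNAs none was detected in ANE, 1 on each MTX array and 0 to 2 elsewhere. miR-449a, which shares the seed and marks ciliated epithelium, was detected on 1 of 2 ANE arrays (28.0) and on 1 of 2 MTX arrays (14.8), and reached 16.9 elsewhere. The part of other cells in the miR-34b and miR-34c levels was not tested, and in bulk RNA fewer cells of a type and less RNA per cell cannot be told apart.

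At 34 days MS differed from CIA by -0.16 in miR-34a, -0.63 in miR-34b and -1.10 in miR-34c (SE 0.62, adjusted p 0.172), in the comparison with the highest share of calls, which crosses slides. Without scaling between arrays the miR-34c difference was 0.09, and miR-34a was called at 1.04 (adjusted p 0.0256), as were 132 of the 210 miRNAs, while the median of all miRNAs tested moved up by 1.15. MS minus PLA at 34 days was 0.04, 0.10 and -0.56. In NOCIA, miR-34c was detected on both arrays at 1 hour and on none before therapy (adjusted p 0.726). Its brighter probe had 18.9 and 15.7 at 1 hour against 12.3 and 15.6, and with both probes summed the difference was 0.35. Apart from CIA against NOCIA, the differences that reached neither an unadjusted p under 0.05 nor a size of 1 lay between -0.19 and 0.35 for miR-34a (15 comparisons), -0.73 and 0.77 for miR-34b (12) and -0.83 and 0.98 for miR-34c (12, of which NOCIA at 34 days against before therapy had no detected array). Differences between the changes of the arms, and between both times of an arm, were tested as well, 25 for each member. The arthritic arms share the CIA baseline, which cancels, so several of these repeat comparisons given above and add no new evidence. None was called (limma). The lowest adjusted p, 0.0949, is that of miR-34b in ANE against PLA at 1 hour again. An unadjusted p under 0.05 was met by 2, 6 and 7 in miR-34a, miR-34b and miR-34c, and the share over all miRNAs was not counted. Those of miR-34b all use the ANE or MTX arrays at 1 hour, as do those of miR-34c except NOCIA between its times. They are thus not separate results, and the counts cannot be read as an excess.

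**Figure D3:**
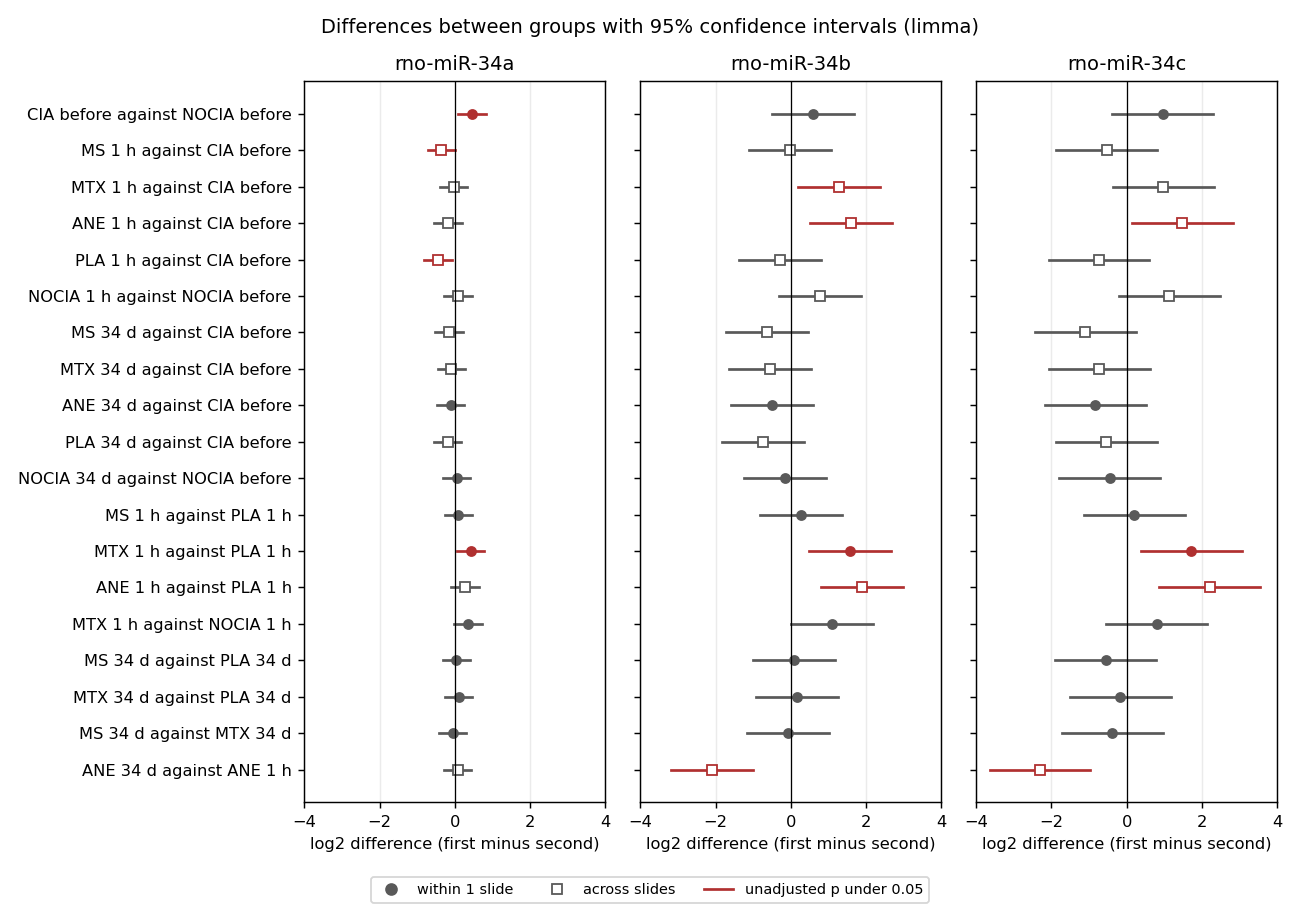
Difference of each member between the first and the second group of 19 comparisons (x axis, log2), with 95% confidence intervals from limma; circles are comparisons within 1 slide, open squares across slides, red marks an unadjusted p under 0.05. The intervals of miR-34b and miR-34c in MTX and ANE against PLA at 1 hour lie above 0, and no adjusted p was under 0.05.

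Across arrays miR-34b and miR-34c moved together. Their levels had a Pearson's r of 0.90 and a Spearman's rho of 0.83 over 24 arrays, an r of 0.84 without the 2 ANE arrays at 1 hour, and an r of 0.91 over the 16 arrays that detected both. miR-34a had a rho of 0.14 with miR-34b and of 0.33 with miR-34c. All points share their array, its scaling and, for the pair, probes for near-identical targets, so these values are a description. Among the miRNAs detected on all arrays, those most like miR-34a by rank were miR-140 (rho 0.58), miR-29b (0.54) and miR-30e (0.53). Those most like miR-34b were miR-21 (0.46), miR-186 (0.45) and miR-1224 (0.44), and those most like miR-34c were miR-21 (0.58), miR-192 (0.56) and miR-3588 (0.56), each over 24 arrays. The median rho over all candidates was 0.04, -0.07 and -0.08.

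**Figure D4:**
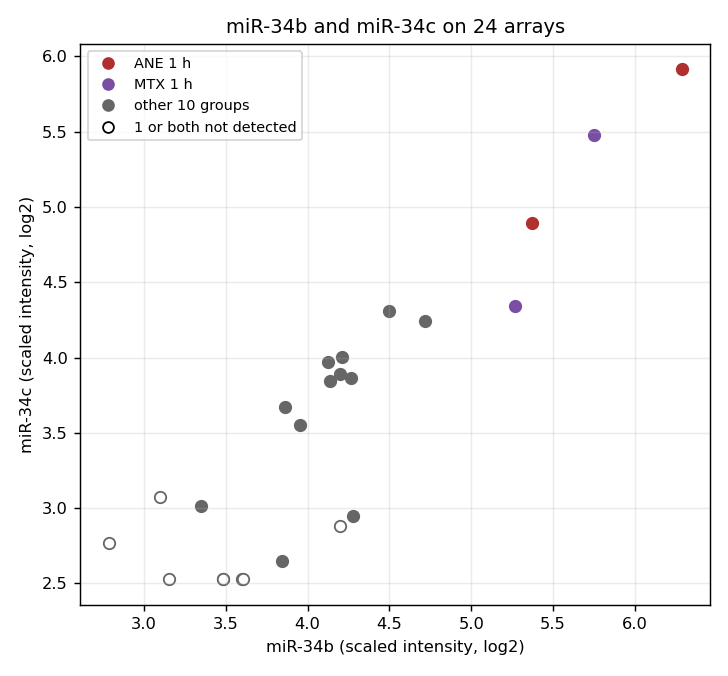
Level of miR-34c (y axis) against miR-34b (x axis) on the 24 arrays, both log2 of scaled intensity; ANE and MTX at 1 hour are coloured and open points have 1 or both undetected. The 4 coloured arrays are at 5.26 or above for miR-34b, and all others at 4.72 or below.

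The other strands and the seed relatives were near or below detection. The passenger strands miR-34a*, miR-34b* and miR-34c* were detected on no array, as were miR-449a* and both arms of miR-449c. miR-449a was detected on 11 arrays, and on no array before therapy. Its highest level was 4.81, on replicate 2 of ANE at 1 hour, while replicate 1 of that group was undetected.

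Other miRNAs tied to p53 were read from lists chosen by their known role. Of 14 miRNAs that p53 is known to induce or to help process, 9 were tested and 5 were detected on no array, miR-215 and 4 of the miR-200 family. In CIA against NOCIA 0 of the 9 were called, with a median difference of 0.16 beside -0.0005 over all miRNAs tested. There 1 of the 9 had an unadjusted p under 0.05 (limma), as did 7.62% of all miRNAs. It was miR-194, undetected on both NOCIA arrays. In MTX against PLA at 1 hour, where the 3 members were highest in rank, 0 of the 9 were called and 0 had an unadjusted p under 0.05, with a median of -0.04 beside -0.03. In ANE against PLA at 1 hour 0 of the 9 were called, with a median of 0.21 beside 0. The 1 with an unadjusted p under 0.05 was miR-192, a p53-induced miRNA of gut and kidney, with a difference of 0.73 (SE 0.30, adjusted p 0.429). It was also among the 3 miRNAs most like miR-34c, a likeness over arrays that include these. In MTX at 1 hour miR-192 differed by -0.04 from PLA and by -0.55 from CIA. miR-143, miR-15b, miR-16, miR-107 and miR-22 were detected on all arrays and were called in no comparison.

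The calls in these lists, 1 in each (miR-141 and miR-30d), both fell in MS at 34 days against CIA. This comparison crosses slides, so slide and treatment cannot be told apart in it. In MS against PLA at 34 days, within 1 slide, neither was called. The differences there were 0.79 (adjusted p 0.062, limma) and 0.30 (adjusted p 0.125). miR-141, a miRNA of the epithelial miR-200 family, was at 3.80 and 3.21 in MS and undetected in CIA (adjusted p 0.0383). Its brighter probe had scaled signals of 13.96 and 9.24 in MS and of 6.95 and 4.98 in CIA, where they were 1.53 and 1.36 times their error. Of 4 miRNAs known to bind the p53 mRNA itself, 3 were tested. miR-30d rose by 0.45 (SE 0.14, adjusted p 0.0429) in the same comparison, while miR-125b-5p and miR-25 were called in none and miR-504 was detected on no array. In that comparison 19% of all miRNAs were called (40 of 210), a count that was 0 with median scaling, with a percentile over all miRNAs, with only the arrays compared, and on leaving out the MS array of replicate 1 or the CIA array of replicate 2. It was 1 when the other CIA array was left out and 103 when the other MS array was. Neither miR-141 nor miR-30d was called in these settings, except that both were when replicate 2 of MS was left out (adjusted p 0.0103 and 0.0077).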

How the data were processed

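PBMC RNA was labelled with Cy3, per the labels, and the spots were quantified by Agilent Feature Extraction (version 10.7.3.1, per the file headers). The deposited linear intensity values were background-corrected by the software and not normalised between arrays. The authors' table of log2 values of the same arrays, with normalisation not stated, served as an alternative. All 12046 undetected totals equalled the listed error. Totals were scaled to the 75th percentile over the 132 miRNAs detected on all 24 arrays, raised to a floor of 5.76 and log2-transformed. Group means (12) were fitted to 210 miRNAs, those with 3 or more arrays detected (limma 3.58.1, R 4.3.3, lmFit and eBayes, 12 residual degrees of freedom, two-sided, Benjamini-Hochberg over the 210), a fit also tested on simulated data. The number of arrays limits the precision.

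Groups came from the labels, where NOCIA is NORA, CIA is RA and MS is AP. For NOCIA at 34 days, 1 label line names 1 hour, and the title's 34 days was used. Each label stands for a separate blood sample, and p-values measure the spread between these samples only. The members and lists were chosen with earlier results of these data known. Differences are printed for CIA against NOCIA before therapy and where an unadjusted p was under 0.05 or the size was at least 1, with others as values or ranges. No fold is given against a group with no detected array, because its listed values are errors. The arrays lay on 3 slides of 8, with each group on 1 slide, and 9 of the 19 comparisons lie within 1. Other scalings, signals, floors and filters, the study's threshold, a replicate block and leaving out arrays were tried.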

Additional observations from a re-analysis of the deposited data

How the results depend on the processing

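Without scaling between arrays, which shifts the median of all miRNAs (by 0.79 in MS at 1 hour against CIA), miR-34a in MS at 1 hour against CIA turned to 0.53 and miR-34c in MS at 34 days against CIA to 0.091, and the members called rose from 0 to 1 in ANE against PLA at 1 hour (miR-34c, of 5 calls among 210 miRNAs), to 1 in MS at 34 days against CIA and against PLA (miR-34a, of 132 and 124 calls), and to 2 in ANE at 34 days against 1 hour (of 3). In ANE against PLA at 1 hour, 3 members were called with a percentile over all miRNAs (of 33 calls, median shift 0.77), 1 with quantile normalisation (miR-34b, adjusted p 0.0383, of 3) and 2 with the floor doubled (of 4). The doubled floor also gave 2 calls in ANE at 34 days against 1 hour (of 3) and 1 in the F test (of 7), and the dimmer probe alone gave 1 in the former (of 1). With no filter on detection, miR-34a was called in CIA against NOCIA (1 call, adjusted p 0.0168, of 371 among 677 miRNAs) and 2 members in the F test (of 358). Of these 677 miRNAs, 432 were detected on no array, so their values are listed errors and not signals. The study's threshold gave 1 call in MTX at 1 hour against CIA (of 1 among 210), 2 in ANE at 1 hour against CIA (of 9), and 1 each in MTX and ANE against PLA at 1 hour (of 2 and 6) and in ANE at 34 days against 1 hour (of 5). In CIA against NOCIA, miR-34b turned to -0.17 and miR-34c to -0.055 with the brighter probe alone, and miR-34b to -0.059 with the mean spot signal, -0.018 in the authors' table, -0.058 with all probes summed and -0.42 with the dimmer probe. The sum of all probes, the dimmer probe and undetected values at the floor were chosen after seeing the data. Leaving out each array in turn gave 0 to 1 calls in the F test, the 1 being miR-34b without PLA at 34 days replicate 2 (adjusted p 0.0402, of 6), and 0 in every comparison. With normexp, miR-34b in ANE against PLA at 1 hour differed by 0.41. The replicate numbers did not pair the samples (66 pairs of groups, r from -0.66 to 0.76, median -0.02), and a replicate block gave 0 calls in all 19 comparisons and in the F test. A slide block was not run, because no group spans slides. The filter on detection on all 24 arrays leaves only miR-34a. Signals of miR-34b and miR-34c near 3 times their error limit what can be read from their lower levels. The causes of these changes were not tested.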
